A study of Mus musculus with 22 samples.

Results

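Binary local splicing variations are splice choices with exactly 2 outcomes: 1 splice site joins either of 2 partners, or 1 intron is either removed or kept. They were taken from the tables that compare stem cells of the mouse colon crypt with 5 other crypt cell types, as every entry whose cell of expected changes held 2 values. The rule found 293 of the 1634 entries, or 17.9%. They were 82 of 408 entries for absorptive progenitors (AbsPro), 85 of 422 for the gate of secretory progenitor, deep crypt secretory and goblet cells (SecPDG), 48 of 286 for tuft cells, 39 of 224 for enterocytes (Ent) and 39 of 294 for enteroendocrine cells (EEC). Since a variation can appear in several tables, the 293 entries stood for 191 distinct variations in 175 genes. All of their junctions were already in the annotation that the authors gave to the program.

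The cells came from untreated wild-type male C57BL/6N mice aged 5 to 7 weeks. Colons were loosened with EDTA and force, and live Epcam+ Cd31- Cd45- cells were sorted by Cd44, Cd24 and, for some gates, Ckit. Stem cells had the highest Cd44 with low Cd24 and no Ckit. AbsPro had medium to high Cd44 with low Cd24 and no Ckit, and SecPDG had high Cd44 with medium Cd24 and medium Ckit. Tuft cells were Ckit+ with high Cd24, Ent had little or no Cd44 and no Cd24, and EEC had little or no Cd44 with Cd24. RNA was sequenced in bulk, with 3 libraries each for stem cells and AbsPro, 4 for SecPDG, 5 each for tuft cells and Ent and 2 for EEC. Each stem cell and AbsPro library came from 1 mouse, and each library of the other cell types from several pooled mice, so that pooling and cell type cannot be told apart for these. In such bulk samples, fewer cells of a type and less RNA per cell cannot be told apart. The comparisons ask how transcript structure differs between stem cells and their progeny, and all 5 share the same stem cell libraries.

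An intron begins at a 5′ splice site and ends at a 3′ splice site, which usually carries the bases AG. A cassette exon is joined or skipped as a whole, and the reading frame is kept only where its length is a multiple of 3. A retained intron stays in the messenger RNA, often with a stop codon that exposes the transcript to nonsense-mediated decay or keeps it in the nucleus. When 2 acceptors lie a few bases apart, the choice adds or removes 1 or a few amino acids.

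The sequences below show the 3 forms of binary choice that recur in the tables, read from transcripts of GENCODE M21 on GRCm38 (mm10) along the strand of the gene. The first set holds acceptors 3 bases apart, the commonest distance here. Capitals mark the bases that are kept when the upstream acceptor is used. Apart from Ptk2 and Mtss1, which are in 4 tables, the sequences were chosen after the values were seen.
Lrba, chr3:86775998-86776000, plus strand: gtggttcccaagAAGggccgtgtctca
2010300C02Rik, chr1:37612397-37612399, minus strand: atcagaacttggCAGctcaggctgcag
Fubp1, chr3:152217832-152217834, plus strand: tcagcagcaaagCAGatctgtaatgac
Top2a, chr11:98995376-98995378, minus strand: gctccatgtcggTAGttgatcttgaaa
Tcf3, chr10:80418816-80418818, minus strand: atggtggcctggCAGatactcagccga

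The second set shows cassette exons that recur across tables or were followed in single libraries. Capitals mark exon bases and lower case the neighboring exons, with the whole exon for Ptk2 and Picalm and the first bases, the last bases and the joint left by skipping for Mtss1 and Ctnnd1.
Ptk2 exon of 21 bases, chr15:73275621-73275641, minus strand: tcgaAAAGCTATGGAATAGATGAAGccag
Picalm exon of 24 bases, chr7:90194273-90194296, plus strand: atgAATGGCATGCATTTTCCACAATACgcg
Mtss1 exon of 195 bases, chr15:58947326-58947520, minus strand, start: gaagctgccaaccagTTGTCTAATGGGTTT
Mtss1 exon, end: ATCCCTAGCTGGAAGgactgggcaaagcca
Mtss1 joint when skipped: gaagctgccaaccaggactgggcaaagcca
Ctnnd1 exon of 63 bases, chr2:84605184-84605246, minus strand, start: ggaatcaaaaatcagATAAGAAACCTGACC
Ctnnd1 exon, end: ACACAAAATCATTAGataacaactattcca
Ctnnd1 joint when skipped: ggaatcaaaaatcagataacaactattcca

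The third set shows both ends of 3 retained introns, with intron bases in capitals, because each kept the usual GT at its start and AG at its end.
Amdhd2 intron of 80 bases, chr17:24163116-24163195, minus strand, start: atgtgcagatcaacgGTGCGGCCTGGCTCG
Amdhd2 intron, end: TTTCTGTGGCCACAGgtggatttggtgttg
Donson intron of 122 bases, chr16:91682621-91682742, minus strand, start: cctggaatctgaggaGTACGTAATCATAGC
Donson intron, end: ATATCAGTTTCCTAGggagcaggcagtcag
Eif4a1 intron of 71 bases, chr11:69668334-69668404, minus strand, start: aatgtggaacgagagGTGAGGCCCAGTGCA
Eif4a1 intron, end: CTTCTGAATCTCCAGgagtggaagcttgac

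For each variation and cell type the tables give an expected share of transcripts using each junction, estimated by the authors over all libraries of that cell type. As the shares of a pair sum to 1, each variation is described here by the share of 1 form, called the longer form. It keeps the intron, the longer end of an exon or, for exon choices, the nearer exon, which has the shorter junction. Of the 90 distinct exons of exon choices, 67 were annotated as cassettes. For the other exon choices and arrangements, the name means only the shorter junction, and the transcript need not be longer. These are the authors' pooled values, with no value per library, so they carry no SD and no test. Every binary entry had an expected change of at least 0.2. The size of a change is therefore part of the selection, and only its range above 0.2 is described.

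Exon choices made up 156 entries, retained introns 72, alternative 3′ splice sites 33, alternative 5′ splice sites 24 and other arrangements 8. The share of the longer form was higher than in stem cells in 186 entries and lower in 107. By table, it was higher in 58.5% of the AbsPro entries, 54.1% for SecPDG, 62.5% for tuft cells, 84.6% for Ent and 74.4% for EEC. The median change was 0.329 over all entries and ranged from 0.212 to 0.99. It was 0.322 for AbsPro, 0.315 for SecPDG, 0.328 for tuft cells, 0.326 for Ent and 0.502 for EEC. The smallest changes were those of Picalm in SecPDG (0.212) and 2010300C02Rik in tuft cells (0.214). A change of at least 0.9 was found in 8 EEC entries and in none of the other tables. The EEC values rest on 2 libraries, of which the smaller held 4122122 counts in genes and the larger 13132315.

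**Figure D1:**
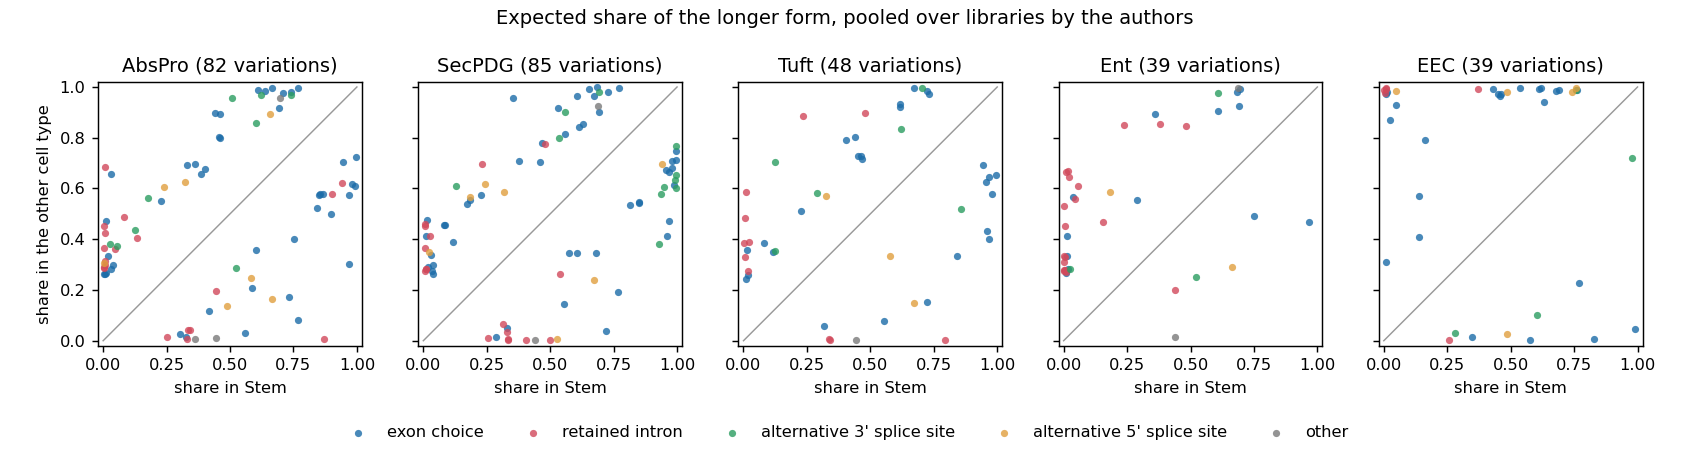
Share of the longer form in stem cells (x axis) against its share in the other cell type (y axis) for every binary variation, 1 panel per comparison, colored by kind of variation; values are the authors' pooled shares from 0 to 1. No point lies near the diagonal because every binary entry had an expected change of at least 0.2, and EEC points reach the corners, with 8 changes of at least 0.9.

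A change of at least 0.3 was found in 52 of the 82 binary AbsPro entries, beside 58.6% of all AbsPro entries. The counts were 48 of 85 for SecPDG beside 54.5% of all its entries, 30 of 48 for tuft cells beside 51.7%, 25 of 39 for Ent beside 51.3% and 31 of 39 for EEC beside 75.2%. Among variations of 3 or more junctions the shares were 57.4%, 54%, 49.6%, 48.6% and 74.5% in the same order. The binary shares were 63.4%, 56.5%, 62.5%, 64.1% and 79.5%, and no test was possible on these pooled values.

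**Figure D2:**
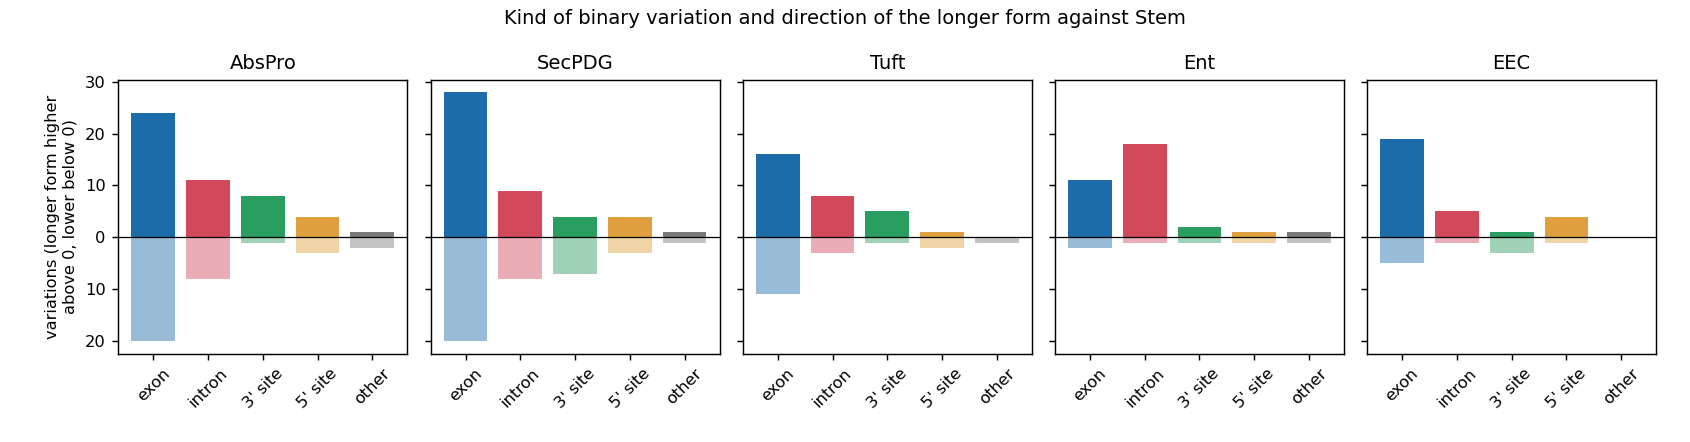
Number of binary variations (y axis) of each kind (x axis) whose longer form had a higher share than in stem cells (above 0) or a lower share (below 0), 1 panel per comparison. Retained introns are 18 higher and 1 lower for Ent, against 11 and 8 for AbsPro.

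Exon choices were the largest kind in 4 of the 5 tables. Of the 90 distinct alternative exons, 67 were annotated as cassettes, and their median length over all 90 was 115.5 bases. The Mgrn1 exon (ENSMUSG00000022517, an E3 ubiquitin ligase) lies at chr16:4926309-4926551, is 243 bases long and holds both coding and untranslated bases in the annotation. Its share was 0.967 or 0.968 in stem cells, against 0.302 in AbsPro, 0.400 in tuft cells, 0.468 in Ent and 0.663 in SecPDG. By the pooled shares, an exon that stem cells nearly always joined was skipped most in AbsPro and least in SecPDG among these 4.

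The Mtss1 exon (ENSMUSG00000022353) is coding, and its gene encodes a membrane-bending regulator of actin. Its share was between 0.609 and 0.621 in stem cells, where the skipped form came from 1 library, and 0.989 in AbsPro, 0.932 in tuft cells, 0.904 in Ent and 0.994 in EEC. The 21-base exon of Ptk2 (ENSMUSG00000022607), the focal adhesion kinase, went the same way from almost nothing. Against 0.019 in stem cells, the share was 0.260 in tuft cells, 0.282 in Ent, 0.292 in SecPDG and 0.335 in AbsPro. Measured from its other flank, the same exon went from 0.030 to 0.282 in AbsPro and from 0.031 to 0.339 in SecPDG. In the annotation used here this exon stands only in transcripts without a coding sequence.

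Myo7b (ENSMUSG00000024388), a myosin of the microvillus tips of the brush border, had an exon of 127 bases with a share of 0.666 to 0.683 in stem cells, again with skipping in 1 library. In AbsPro, SecPDG, tuft cells and Ent it was between 0.982 and 0.998. Akap9 (ENSMUSG00000040407), a scaffold of protein kinase A at the centrosome and Golgi, joined an 11-base exon at 0.013 or 0.014 in stem cells. The share was 0.267 in AbsPro, 0.359 in tuft cells, 0.413 in Ent and 0.474 in SecPDG. That form was not in the transcripts used here.

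Picalm encodes a clathrin assembly protein. Its 24-base exon had a share of 0.691 in stem cells and 0.903 in SecPDG, 0.925 in Ent and, against 0.680 in the EEC table, 0.986 in EEC. Ktn1 encodes a kinesin-binding membrane protein, and its exon of 38 bases had a stem cell share of 0.613 to 0.616. It was 0.843 in SecPDG, 0.920 in tuft cells and 0.992 in EEC. Another Ktn1 exon, of 69 bases, went the other way in the pooled shares, from 0.753 to 0.399 in AbsPro and from 0.749 to 0.493 in Ent. In single libraries its inclusion overlapped, with 52.1% to 100.0% in stem cells, 46.9% to 100.0% in AbsPro and 12.8% to 91.4% in Ent. Mia3, which carries bulky cargo out of the endoplasmic reticulum, had a lower share of the form joined to the nearer exon in 3 cell types. It was 0.721 in stem cells against 0.039 in SecPDG, 0.732 against 0.172 in AbsPro and 0.723 against 0.154 in tuft cells. The length of the Mia3 segment is uncertain, since the exon listed did not match its junctions. It is not annotated as a cassette either, so which Mia3 transcript is the longer is not known.

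Cell adhesion genes held variations in Cd44 and Ctnnd1. The 114-base exon of Cd44, the hyaluronan receptor used for the sort, had a share of 0.740 in stem cells and 0.979 in AbsPro, and of 0.731 and 0.972 in the tuft cell table. In single libraries its inclusion was 59.5% to 94.7% in stem cells, with a median of 94.6%. It was 72.5% to 100.0% in AbsPro and 77.0% to 100.0% in tuft cells, so the groups overlapped. The 63-base exon of Ctnnd1 (p120 catenin, which stabilizes cadherins) went down from 0.850 to 0.575 in AbsPro and from 0.849 to 0.544 in SecPDG. The tables list this exon once more under ENSMUSG00000101645, a read-through locus that overlaps Ctnnd1. That locus had a further exon, of 289 bases at chr2:84624270-84624558, with a share of 0.557 in stem cells and 0.814 in SecPDG. Spen, a repressor in Notch signaling, had an exon choice that went from 0.604 to 0.965 in SecPDG. The exon listed for Spen did not match its junctions, so the length of that segment is uncertain. Of the other genes the study discusses for splicing, Itga6, Eif4a2, Cbfa2t2, Kitl and Xbp1 had no binary variation.

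Frame-keeping lengths were common among the cassette exons that lie wholly in coding sequence. Partly coding exons, 27 of the 90 distinct exons, are left out of that set. Over all 90, 52 had a length that is a multiple of 3. Of 40 coding cassette exons, 32 (80%) had a length that is a multiple of 3, against 41.4% of the 2960 internal coding exons of the same genes. The exons that shift the frame included Ano9 (47 bases) and Myo7b (127 bases). Huwe1, a large ubiquitin ligase, had 2 variations around an exon of 108 bases that the annotation puts only in transcripts subject to nonsense-mediated decay. Measured from the upstream exon, its share was 0.554 to 0.558 in stem cells, against 0.030 in AbsPro, 0.146 in SecPDG and 0.077 in tuft cells. Measured from the downstream exon, it was 0.012 in stem cells and 0.982 in EEC, so the flanks gave stem cells different shares of the same exon.

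Retained introns made up 19 of the 39 Ent entries (48.7%), and 18 of the 19 were more retained in Ent than in stem cells. The share of entries with an intron was 30.8% among the Ent variations of 3 or more junctions. In the other tables introns made up 23.2% of the binary entries for AbsPro, 20% for SecPDG, 22.9% for tuft cells and 15.4% for EEC. Retention was higher in 11 of 19 entries for AbsPro, 9 of 17 for SecPDG, 8 of 11 for tuft cells and 5 of 6 for EEC. Reads assigned to no gene, which include intronic reads, were compared as well. Their share of such reads plus reads in genes was 45.6% to 48.9% in the stem cell libraries, 45.9% to 49.9% in AbsPro and 41.3% to 47.2% in SecPDG. It was 43.9% to 68.4% in tuft cells, 67.3% to 83.3% in Ent and 64.9% to 89.9% in EEC. Every Ent and EEC library thus lay above every stem cell library, while introns made up the largest share of binary entries in Ent and the smallest in EEC. The part of such reads in the intron shares was not tested.

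Enterocytes retained introns in genes of several kinds. Tbl3, a factor of ribosomal RNA processing, went from 0.009 in stem cells to 0.663 in Ent. Pomgnt1, a glycosyltransferase of the Golgi, went from 0.019 to 0.667, and Yif1b, a Golgi membrane protein, from 0.022 to 0.645. Mien1 went from 0.055 to 0.609, Donson, a replication fork protein, from 0.002 to 0.532, and Actg1, the cytoplasmic gamma actin, from 0.004 to 0.454. Gas5, a noncoding host of small nucleolar RNAs, was the exception, with 0.439 in stem cells and 0.199 in Ent.

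Plk1, a mitotic kinase (ENSMUSG00000030867), kept an intron of 185 bases at chr7:122168644-122168828 in 3 cell types. Measured from the downstream exon, its share was 0.236 in stem cells, 0.884 in tuft cells and 0.849 in Ent, and it went from 0.232 to 0.695 in SecPDG. Measured from the upstream exon the stem cell share was higher, at 0.477 to 0.482, and the others were 0.897, 0.846 and 0.775 in the same order. The flanks of this intron therefore gave unlike stem cell shares but the same direction.

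In EEC, introns went from near 0 to near 1. Khsrp, a regulator of RNA decay (ENSMUSG00000007670), had a share of 0.000 in stem cells and 0.990 in EEC for an intron of 88 bases. Amdhd2, an enzyme of amino sugar metabolism, went from 0.008 to 0.993, and Klc2, a kinesin light chain, from 0.003 to 0.976. Maged1 went from 0.008 to 0.995, although its listed interval is not the spliced intron. In AbsPro and SecPDG several introns were instead spliced more fully than in stem cells. Tcirg1, a subunit of the vacuolar proton pump, had a share of 0.333 to 0.337 in stem cells and of 0.042 in AbsPro and 0.006 in both SecPDG and tuft cells. For Atp13a1, 0.332 to 0.342 in stem cells stood against 0.041, 0.002 and 0.004 in the same cell types. Zfp219, a zinc finger protein, had the largest change of the AbsPro table, from 0.872 to 0.008. Zfp335 went the other way, from 0.006 to 0.686 in AbsPro, 0.274 in SecPDG and 0.485 in tuft cells.

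The retained introns were short. Of 53 distinct intron variations, 46 listed exactly the spliced intron, and these used 38 different introns. Their median length was 90.5 bases and 26 of them (68.4%) were at most 100 bases long. Of the 3599 introns of the same genes, 8.11% were that short and the median was 1178 bases. The longest was the Srsf2 intron of 502 bases, which lies at an untranslated region. Srsf2, an SR protein that promotes exon joining, went from 0.330 in stem cells to 0.005 in AbsPro. Of the 38, 35 lay between coding exons, and all 9 whose sequence was read began with GT and ended with AG.

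**Figure D3:**
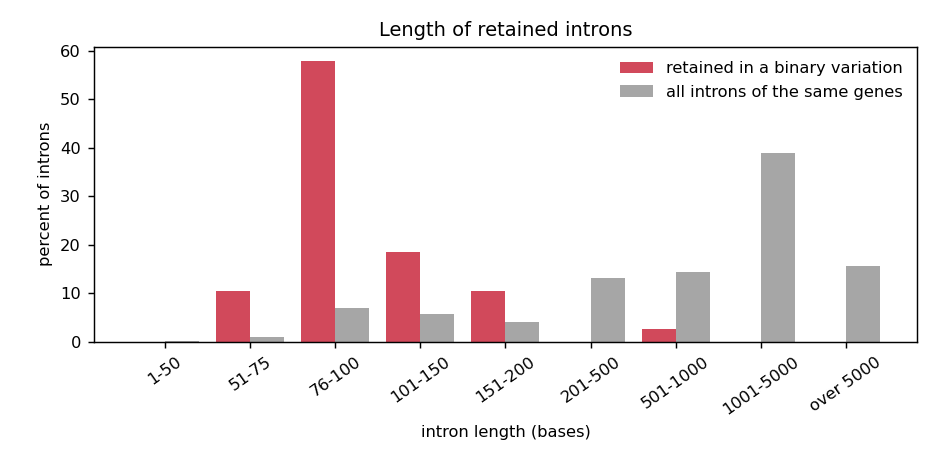
Percent of introns (y axis) by length in bases (x axis) for the 38 retained introns of binary variations (red) and the 3599 introns of the same genes (grey). The retained introns peak at 76 to 100 bases, with 57.9% in that bin against 7.0% of all introns.

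Among alternative 3′ splice sites the acceptors were close together. Of 25 distinct pairs, 15 were 3 bases apart and 22 a multiple of 3. Of the 14 3-base segments with a sequence, all ended in AG, as the second acceptor must, and 10 read CAG. Lrba, which acts in vesicle traffic, used the upstream acceptor at 0.623 in stem cells and 0.970 in AbsPro, and at 0.610 and 0.975 in the Ent table. Top2a, a topoisomerase of dividing cells, went down from 0.938 to 0.580 in SecPDG. Tcf3, the E2A transcription factor, went up from 0.054 to 0.372 in AbsPro.

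Acceptor choice did not keep 1 direction across cell types. The share at 2010300C02Rik went from 0.602 to 0.860 in AbsPro and from 0.620 to 0.834 in tuft cells, but from 0.604 to 0.102 in EEC. Fubp1, a regulator of Myc transcription, went from 0.290 to 0.584 in tuft cells and from 0.281 to 0.031 in EEC. Chd3, a chromatin remodeler with acceptors 18 bases apart, went from 0.506 to 0.955 in AbsPro and from 0.520 to 0.252 in Ent. Usp9x, a deubiquitinase with acceptors 15 bases apart, went up from 0.125 to 0.706 in tuft cells and from 0.127 to 0.609 in SecPDG. At 5′ splice sites the median distance of 15 distinct pairs was 12 bases. Smc5, part of a DNA repair complex, went from 0.489 to 0.135 in AbsPro and from 0.485 to 0.981 in EEC. Zfp553 (ENSMUSG00000045598), whose choice of 31 bases lies in an untranslated region, had a share of 0.664 to 0.673 in stem cells. The share was 0.149 in tuft cells, 0.166 in AbsPro, 0.238 in SecPDG and 0.290 in Ent.

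The leading changes of each comparison, beyond those above, were spread over unrelated genes. In AbsPro, 2210018M11Rik (Emsy in the annotation) had an exon of 153 bases that went from 0.768 to 0.082, and Ep400, a chromatin remodeler, an exon of 108 bases that went from 0.032 to 0.656. In SecPDG the same 2210018M11Rik exon went from 0.769 to 0.192. Also in SecPDG, Ano9, an anoctamin, went from 0.354 to 0.958, Mapre2, a microtubule end-binding protein, from 0.961 to 0.413, and Fbxo7 from 0.526 to 0.007. In tuft cells the Arhgap4 intron went from 0.795 to 0.004, with an interval that is not the spliced intron, and the Tln1 (talin) intron from 0.008 to 0.586. In Ent, Ano9 went from 0.359 to 0.892. In EEC, the 11-base exon of Ints9, an Integrator subunit, went from 0.009 to 0.973.

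By identifier, 124 of the 191 variations were in 1 table, 39 in 2, 21 in 3, 7 in 4 and none in all 5. Thus 67 (35.1%) recurred. Counted by gene, 64 of 175 did, and with the EEC entries left out, 58 of 169 variations did. The stem cell share of a recurring variation differed by at most 0.018 between tables, as the same libraries enter each. Tuft cells had the fewest variations of their own, 10 of 48 (20.8%). The count was 37 of 82 (45.1%) for AbsPro, 39 of 85 (45.9%) for SecPDG, 16 of 39 (41%) for Ent and 22 of 39 (56.4%) for EEC. SecPDG and tuft cells shared 27 variations, 31.8% of the SecPDG and 56.2% of the tuft cell list. AbsPro and SecPDG shared 28 (34.1% and 32.9%) and AbsPro and tuft cells 25 (30.5% and 52.1%). Ent and EEC shared 4 (10.3% of each). The summed normalized counts of 5 goblet and secretory markers (Muc2, Reg4, Spdef, Atoh1 and Tff3) were 481894 to 1017637 in tuft cells and 504751 to 1401831 in SecPDG, so that these ranges overlapped, against 11983 to 21243 in stem cells. The part of such transcripts in the variations that SecPDG and tuft cells share was not tested.

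**Figure D4:**
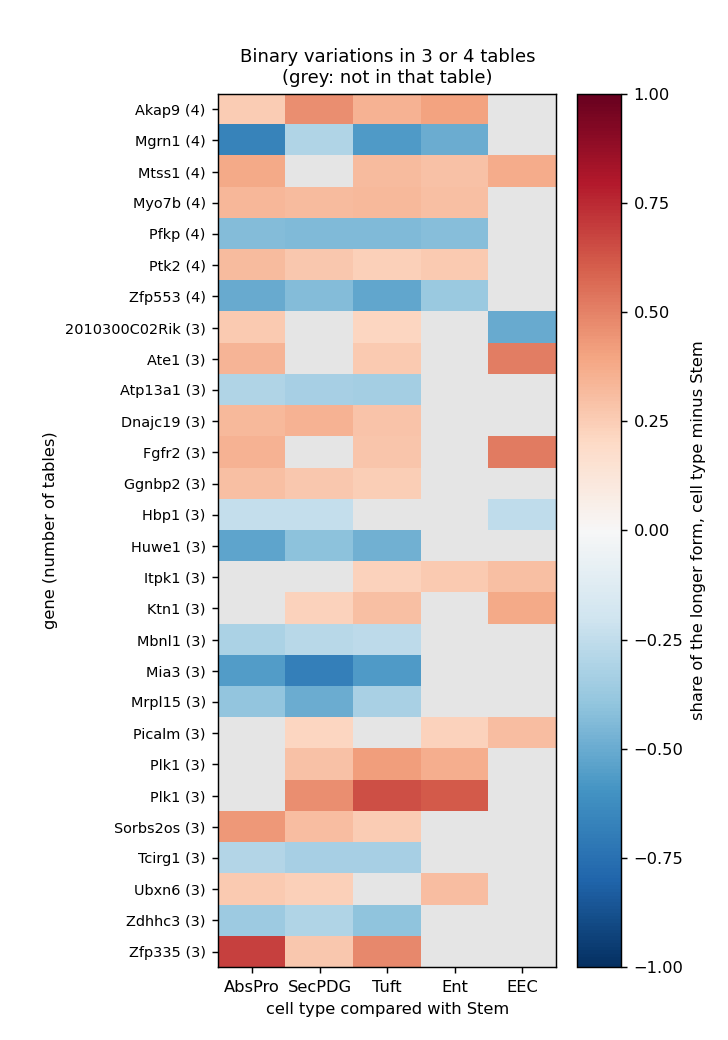
Change in the share of the longer form against stem cells (color, from -1 to 1) for the 28 variations in 3 or 4 tables (rows, with the number of tables) in each comparison (columns); grey marks absence from a table. Most rows keep 1 color, and 2010300C02Rik is blue in EEC and red in AbsPro and tuft cells.

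The seventh variation in 4 tables was in Pfkp (ENSMUSG00000021196), the platelet phosphofructokinase of glycolysis. Its junctions do not form a simple class. Its share was 0.439 to 0.443 in stem cells, against 0.009 in AbsPro, 0.002 in SecPDG, 0.004 in tuft cells and 0.016 in Ent. Some entries count 1 choice under 2 gene names. This was so for 4 pairs on the same strand, CTNND1 and Ctnnd1, Ate1 and Fgfr2, Gm20427 and H2-Ke6, and Gm20388 and Zc3h18. Sorbs2 and Sorbs2os share junctions on opposite strands. By junction coordinates there were 187 variations, of which 65 recurred.

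Counts per library existed only for skipped exons, in separate tables of inclusion and skipping made by the authors from the same reads. They show the spread that the pooled shares hide, but they are no independent measurement. They matched 39 binary exons in all. The members matched were 21 for AbsPro, 19 for SecPDG, 8 for tuft cells, 6 for Ent and 9 for EEC. Of these, 15, 11, 3, 3 and 1 had at least 10 counts in every library and were tested with edgeR over 2502, 2615, 2137, 2038 and 474 exons. The percent of all tested exons called was 0 in each table (0 of 2502, 2615, 2137, 2038 and 474 at an adjusted p of 0.05), and no member was called. At an unadjusted p of 0.05, edgeR found 3, 24, 61, 67 and 4 exons in that order, and none was a member. DESeq2 called 0, 1, 0, 0 and 4 exons and limma 0, 0, 2, 17 and 10, again without a member. At an unadjusted p of 0.05, DESeq2 found 2 members in AbsPro and 2 in SecPDG and limma 3 in each, and neither found one in the other tables. The lowest unadjusted edgeR p of a member was 0.117, for Trappc10 in AbsPro. Exons simulated with the spread of these libraries were not called either, so that the absence of calls does not show that inclusion was equal.

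Ctnnd1 showed the clearest separation between single libraries. Inclusion of its 63-base exon was 95.4%, 78.6% and 83.7% in the 3 stem cell libraries. In AbsPro it was 53.1%, 17.9% and 49.0%, and in SecPDG 57.3%, 69.6%, 18.1% and 59.8%. Neither cell type overlapped with stem cells, and 1 library of each lay far below its group. The means were 85.9% ± 8.63 (SD, n = 3) in stem cells, 40.0% ± 19.2 (n = 3) in AbsPro and 51.2% ± 22.7 (n = 4) in SecPDG. The adjusted p of edgeR was 0.744 for AbsPro and 0.698 for SecPDG. Outside the tables that list it, inclusion ranged from 61.8% to 75.9% in tuft cells and from 66.9% to 96.3% in Ent, where it overlapped with stem cells. The only EEC library with counts had 94.3%. The 289-base exon of the read-through locus, listed under Ctnnd1 in these tables, had an inclusion of 28.8%, 41.0% and 50.1% in stem cells and 100.0%, 50.3%, 60.3% and 48.1% in SecPDG, where 1 library lay far above the others and the groups overlapped.

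The 38-base Ktn1 exon had an inclusion of 17.1%, 65.2% and 56.7% in stem cells and of 95.1%, 85.6% and 91.7% in the 3 SecPDG libraries with counts. These SecPDG libraries lay above all stem cell libraries, but SecPDG library 1 held no counts on the exon, so that it was not tested. The 24-base Picalm exon had 11.8%, 75.1% and 83.7% in stem cells, the lowest on 14 counts, and 100.0%, 89.3%, 100.0% and 78.0% in SecPDG, and the groups overlapped. In all, 1 of 15 tested AbsPro members had libraries that did not overlap with stem cells, beside 2.28% of all tested exons. It was 2 of 11 for SecPDG beside 1.19%, 0 of 3 for tuft cells beside 0.749%, 0 of 3 for Ent beside 1.13% and 1 of 1 for EEC beside 7.38%. Ctnnd1 was among them in both AbsPro and SecPDG. As the members were chosen from the same reads for a change, such counts are a description.

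The EEC member was Rab11fip1, of recycling endosomes, with an exon of 1563 bases at chr8:27151597-27153159. Its inclusion was 36.2% and 26.4% in EEC and 72.7%, 57.4% and 45.6% in stem cells, without overlap and with an adjusted p of 0.860 by edgeR.

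**Figure D5:**
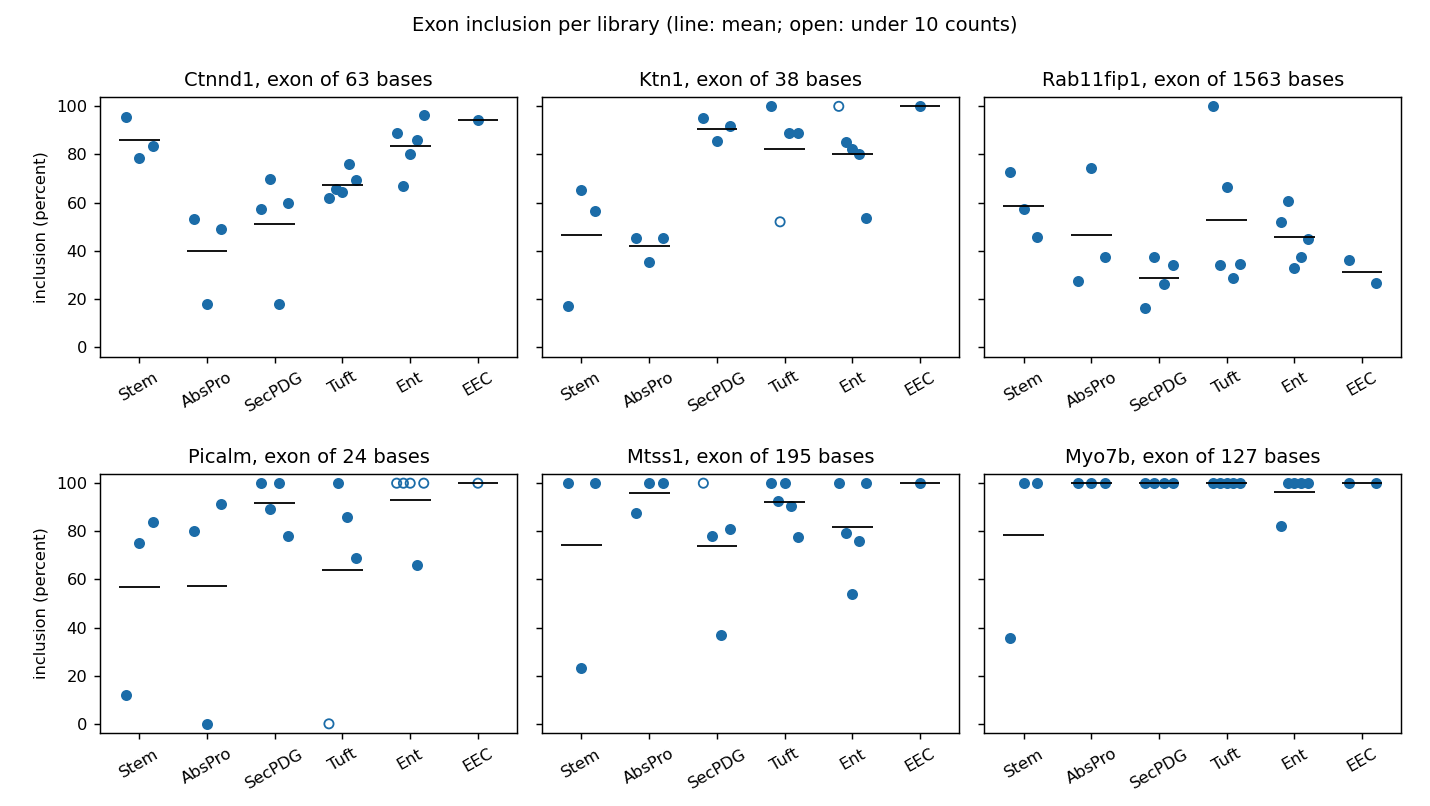
Inclusion of 6 exons in percent (y axis) in each library of the 6 cell types (x axis), as a point each, with the mean as a line and open points for under 10 counts. Ctnnd1 lies at or above 78.6% in stem cells and at or below 53.1% in AbsPro, while the low stem cell values of Mtss1 and Myo7b come from 1 library each.

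For other exons 1 stem cell library set the pooled share. Inclusion of the Mtss1 exon was 100.0%, 23.3% and 100.0% in stem cells and 87.6%, 100.0% and 100.0% in AbsPro. For Myo7b it was 35.5%, 100.0% and 100.0% in stem cells, and 100.0% in all AbsPro, SecPDG, tuft cell and EEC libraries. For Senp7, a protease of the SUMO pathway, it was 100.0%, 17.5% and 100.0% in stem cells. The low library was number 2 for Mtss1 and Senp7 and number 1 for Myo7b, and in each case the other stem cell libraries were as high as any progeny library. The Ep400 exon did not show its pooled change, with 43.1% and 70.1% in the 2 stem cell libraries with counts and 72.2%, 100.0% and 44.4% in AbsPro. The members were chosen from the same reads for a change, so a larger difference than over all exons was built into the choice. The median absolute difference in mean inclusion was 0.188 over the tested AbsPro members and 0.036 over all exons tested. It was 0.247 and 0.019 for SecPDG, 0.178 and 0.013 for tuft cells, 0.180 and 0.020 for Ent and 0.272 and 0.032 for EEC. Depth limited these values, since the median count on a matched exon was 59 in a stem cell library and 8.5 in an EEC library. In EEC only 2 of 24 listed exons had at least 10 counts in both libraries.

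Gene levels were tested to see whether the genes with a binary variation also changed in total RNA. Of the 175 genes, 169 were found by symbol in the gene counts. Libraries held between 4122122 counts (EEC) and 22462518 counts (stem cells) in genes. A gene was called by edgeR at an adjusted p under 0.01 with a mean of at least 50 normalized counts. In AbsPro 1 of 75 tested genes was called, beside 0.364% of all genes, and in SecPDG 2 of 76 beside 3.1%. In tuft cells it was 2 of 45 beside 6.44%, in Ent 6 of 36 beside 13.5% and in EEC 5 of 37 beside 14%. Among all genes with a mean of at least 50, a level that every tested member reached, the called share was 0.629%, 5.36%, 11.1%, 23.4% and 24.2%. The members' own shares were 1.33%, 2.63%, 4.44%, 16.7% and 13.5%, and the difference from genes of that level was not tested. Their median log2 fold change was -0.03, -0.01, -0.11, -0.49 and -0.27, beside 0.04, -0.05, -0.09, -0.30 and -0.33 for all genes with a mean of at least 50. With the size factors of DESeq2 the latter medians became 0.02, -0.04, 0.21, 0.36 and 0.53, so a fold change near those shifts has no fixed sign in tuft cells, Ent and EEC.

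Mia3 rose most in the secretory cells. Normalized counts were 2417, 2600 and 2937 in the stem cell libraries. They ranged over 16659 to 32213 for SecPDG and 12483 to 23811 for tuft cells, so that no library of either type overlapped with stem cells. The log2 fold change was 3.12 ± 0.45 (SE) in SecPDG (edgeR adjusted p = 8.88e-06) and 2.60 ± 0.43 in tuft cells (edgeR adjusted p = 5.17e-05). The pooled share of the Mia3 form joined to the nearer exon was lower in both. Plk1 rose by 1.59 ± 0.36 in SecPDG (edgeR adjusted p = 0.00449) and fell by 1.09 ± 0.33 in Ent (edgeR adjusted p = 0.00947), and the pooled share of its intron was higher in both. The Ent value of Plk1 was -0.64 and no longer called with the size factors of DESeq2.

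Cd44 counts were 9577, 9502 and 10724 in stem cells, 2421, 2994 and 1856 in AbsPro and from 3425 to 5668 in tuft cells. The groups did not overlap. Cd44 fell by 2.04 on the log2 scale in AbsPro (SE 0.34, edgeR adjusted p = 0.00119) and fell by 1.21 in tuft cells (SE 0.29, edgeR adjusted p = 0.00420). The sort itself selected on Cd44 protein. In Ent the log2 fold change was -2.48 for Nop56, a core protein of small nucleolar particles, -1.31 for Tbl3, -1.19 for Picalm, -1.38 for Zfp553 and 1.11 for Pfkp, all called. Neither Picalm (-0.67) nor Zfp553 (-0.86) was called with the size factors of DESeq2. In EEC it was -3.42 for Nop56 and -2.03 for Khsrp, and 3.58 for Nin, a centrosome protein, and 1.70 for Itpk1, an inositol phosphate kinase. Without EEC library 2 the values were -4.73 for Nop56, -3.20 for Khsrp and 2.45 for Nin, and without EEC library 1 they were -2.92, -1.55 and 4.04, all still called. The Nin counts were 408, 422 and 603 in stem cells and 2623 and 8797 in EEC, and the pooled share of its 411-base exon went from 0.047 to 0.927. The Itpk1 call rests on EEC library 2, which had 5751 normalized counts against 1461 in library 1 and 880 to 1410 in stem cells, and the value without it was 0.39. The call was also lost without stem cell library 1 (1.56) or 3 (1.48).

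Gene lists for pathways near splicing and the crypt held few of the members. Of 65 splicing regulators, 5 had a binary variation, namely Srsf2, Mbnl1, Hnrnpll and Luc7l2 in AbsPro, Mbnl1 also in SecPDG and tuft cells, and Snrnp70 in EEC. Mbnl1 encodes a muscleblind protein that itself guides exon choice. Its exon of 111 bases had a share of 0.319 to 0.330 in stem cells, against 0.013 in AbsPro, 0.050 in SecPDG and 0.058 in tuft cells. Hnrnpll went from 0.004 to 0.263, Luc7l2 from 0.947 to 0.705 and Snrnp70, a protein of the U1 particle, from 0.137 to 0.407. Gene levels of the regulators were called lower for 24 of 65 in Ent and 16 in EEC, with 3 higher in EEC, beside 23.4% and 24.2% of all genes with a mean of at least 50 called either way. In tuft cells 1 was lower, and none was called in AbsPro or SecPDG, beside 11.1%, 0.629% and 5.36% of all such genes. The median log2 fold change of the regulators was -0.97 in Ent and -1.02 in EEC. Over all genes with a mean of at least 50 it was -0.30 and -0.33. Under DESeq2's size factors the medians were -0.48 and -0.37, beside 0.36 and 0.53, and the calls were 22 lower in Ent and 18 lower with 5 higher in EEC. Of all 14508 genes with a mean of at least 50, these factors gave 2582 higher and 1114 lower in Ent. In EEC they gave 3167 higher and 1210 lower.

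Of the 26 genes of the SUMO pathway, Senp6 and Senp7, both SUMO proteases, had a variation. Senp6 went from 0.459 to 0.964 in EEC. Senp7 went from 0.710 to 0.976 in AbsPro and from 0.695 to 0.992 in Ent, with the skipped form of stem cells in 1 library. Gene levels of the pathway were called lower for 7 genes in Ent and 5 in EEC, with 1 higher in each (medians -0.66 and -0.83), out of 26 and beside the same 23.4% and 24.2% of all genes. In tuft cells 1 rose and 1 fell, and none was called in AbsPro or SecPDG, beside 11.1%, 0.629% and 5.36% of all genes. Under DESeq2's size factors, 5 were higher and 5 lower in EEC. Of all 14508 genes with a mean of at least 50, 3167 were then higher and 1210 lower in EEC. Wnt and Notch genes with a variation included Dvl1, Spen and Ctnnd1. Of the 50 measured, 13 fell and 2 rose in Ent, 9 fell and 1 rose in EEC and 7 fell and 1 rose in tuft cells (medians -0.70, -0.55 and -0.25), beside 23.4%, 24.2% and 11.1% of all genes. In SecPDG 3 fell and 2 rose, and in AbsPro 1 fell, beside 5.36% and 0.629% of all genes. With the size factors of DESeq2 the calls were 10 lower and 6 higher in Ent, 7 lower and 5 higher in EEC, 6 lower and 3 higher in tuft cells and 7 lower and 2 higher in SecPDG, and the EEC median was 0.01. Over all genes the same factors gave 2582 higher and 1114 lower in Ent, 1662 and 604 in tuft cells and 894 and 311 in SecPDG.

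Adhesion and cytoskeleton genes with a variation were Cd44 and Ktn1, of 39 measured. Called levels were 5 lower and 2 higher in both Ent and EEC (medians -0.17 and -0.38), 3 lower and 2 higher in tuft cells and 1 lower in AbsPro, beside 23.4%, 24.2%, 11.1% and 0.629% of all genes. With the size factors of DESeq2 the balance turned, with 10 higher and 3 lower in Ent, 10 higher and 5 lower in EEC and 7 higher and 3 lower in tuft cells. Over all genes the balance turned as well in Ent, from 1276 higher and 1806 lower to 2582 and 1114. In EEC it went from 1500 and 1697 to 3167 and 1210. In tuft cells 1662 of all genes were then higher and 604 lower. Picalm was the single one of 39 membrane traffic genes with a variation. In that list 3 genes rose in SecPDG, 3 in tuft cells and 1 in AbsPro, 1 rose and 2 fell in Ent and none was called in EEC, beside 5.36%, 11.1%, 0.629%, 23.4% and 24.2% of all genes. As over all genes, the Ent balance turned with the size factors of DESeq2, to 7 higher and 0 lower. EEC then had 3 higher and 1 lower. The chromatin and transcription regulators with a variation included Ep400, Kmt2c, Kmt2d and Nsd1. Kmt2c, a histone methyltransferase, went from 0.487 to 0.028 in EEC, and Nsd1, another, from 0.956 to 0.624 in tuft cells and from 0.957 to 0.671 in SecPDG. Of 41 measured, 12 fell in Ent (median -0.82), 6 fell and 1 rose in EEC (median -0.45) and 1 fell in tuft cells, beside 23.4%, 24.2% and 11.1% of all genes. Under DESeq2's size factors, 10 fell and 3 rose in Ent and 8 rose and 5 fell in EEC, beside the same counts over all genes.

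The labels were checked against lists of cell type markers. Every library labelled stem cells, tuft cells or EEC had a higher sum of its own 5 markers than any other library. The stem cell markers (Lgr5, Smoc2, Axin2, Cd44 and Rnf43) include Cd44, on whose protein the sort selected. The check of the stem cell label is therefore partly fixed by the gate. Il25 and Rgs13, which mark tuft cells, were at 0 in all stem cell libraries. The sums of the absorptive markers were highest in AbsPro and Ent, apart from EEC, whose libraries had 20936 and 131376. Markers of cells that the gates should remove were also summed. The 5 immune markers summed to 28.8 to 48.5 in stem cells, 226 to 562 in Ent, 547 to 1144 in EEC and 1130 to 3116 in tuft cells. The 4 endothelial markers summed to 9.6 to 32.9 in stem cells, 87.8 to 446 in tuft cells, 341 to 828 in Ent and 795 to 1510 in EEC. The 5 stromal markers gave 31.7 to 192 in stem cells but 29.3 to 1228 across the AbsPro libraries, 107 to 547 in tuft cells, 406 to 1150 in Ent and 288 to 2063 in EEC. The 3 muscle markers reached up to 96.4 in stem cells and ranged over 67.8 to 497 in tuft cells, 266 to 897 in Ent and 124 to 1911 in EEC, so that tuft cells overlapped with stem cells. The part of such cells in the splicing shares was not tested.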

How the data were processed

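Splicing was measured by RNA-seq in 22 libraries of 6 sorted cell types. Per the labels and the study's methods, the authors aligned reads with STAR 2.5.2a to mm10 and counted genes without regard to strand with HTSeq 0.6.1p1, and the deposited gene counts are raw. The deposited fraction values of the local splicing tables are expected junction shares pooled over libraries by the authors with MAJIQ, run as strand-specific, so their depth is unknown. The deposited skipped exon counts are inclusion and skipping counts per library from rMATS. Libraries are not named there, so a library's number is its position in the list. The cell type of each column of the local splicing tables was read from the name of its file. Columns of the authors' own comparisons (expected changes, probabilities, p-values and inclusion differences) were not used as results. The expected changes served only to count the 2 junctions and to see the 0.2 limit of the binary entries. The polyadenylation tables were not used.

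Members and lists were chosen with earlier results of these data known. The text names the 6 largest changes per comparison, the variations in 4 tables, member exons called by edgeR (there were none), the genes the study discusses for splicing and up to 4 members per gene list, and any other gene was named after its values were seen. Some genes and 1 sequence that these rules or values would bring in are not reported here.

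Tests of genes used edgeR 4.0.16 under R 4.3.3 (TMM, filterByExpr, quasi-likelihood F test, 1 fit of 22 libraries, Benjamini-Hochberg over 22781 genes). The 5 closing entries without a gene were left out, and reads assigned to no gene were 41.3% to 89.9% of these plus the reads in genes. Skipped exons were tested with edgeR on paired inclusion and skipping columns in each table. DESeq2 1.42.0 and limma 3.58.1 were alternatives. Scripts were tested on simulated data. P-values measure the spread between libraries, which come from independent sorts. Segment positions, lengths and sequences come from GENCODE M21 (GRCm38), and no genome sequence was used. Python 3.11.15 with pandas 2.3.3, numpy 2.4.6 and matplotlib 3.10.9 gave the summaries and figures.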

Additional observations from a re-analysis of the deposited data

Results flagged for a closer look

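In 2 of 20 groups of 4 or 5 libraries, 1 library lay far from the others in the inclusion of a binary exon. All the other libraries of both groups were at the ceiling of 100.0%, where any lower value stands apart, so the usual chance rate of about 1 in 20 groups does not apply. Ent library 1 had 82.4% inclusion of the Myo7b exon and the other 4 Ent libraries 100.0%. SecPDG library 1 had 39.1% inclusion of the Map1lc3a exon and the other 3 SecPDG libraries 100.0%, so the SecPDG change of that exon, from a pooled share of 0.996 to 0.711, rests on this library. Outside these 20 groups, 1 Ent library also lay below 4 others at 100.0% for the exons of Map1lc3a (94.2%), Dnlz (16.9%) and Picalm (65.9%).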

How the results depend on the processing

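Of 659 alternative values in all, part were fold changes of called member genes, and none of these changed sign. With the size factors of DESeq2 in edgeR the median log2 fold change of the member genes did change sign, from -0.11 to 0.10 in tuft cells, -0.49 to 0.06 in Ent and -0.27 to 0.31 in EEC. No binary exon was called in any comparison under any count minimum, threshold, tool, matching rule or left-out library tried, so the range of calls without 1 library was 0 to 0 in each comparison. Counting a change from 0.3 instead of 0.2 left 52 AbsPro, 48 SecPDG, 30 tuft cell and 25 Ent variations. The number of member genes called moved most. At an adjusted p under 0.05 it was 4 in SecPDG, 8 in tuft cells, 10 in Ent and 11 in EEC. With the size factors of DESeq2 in edgeR it was 6 in SecPDG (5 higher), 5 in tuft cells (4 higher) and 15 in EEC (10 higher), where TMM gave 2, 1 and 2 higher, and 3 of 5 in Ent, where TMM gave 1 of 6. Of all 14508 genes with a mean of at least 50, those factors gave 894 higher and 311 lower in SecPDG. They gave 1662 and 604 in tuft cells, 2582 and 1114 in Ent and 3167 and 1210 in EEC. Without a filter on low counts, 8 member genes were called in EEC. DESeq2 called 17 in EEC, 12 in Ent, 9 in both tuft cells and SecPDG and 3 in AbsPro. The members tested were 37, 36, 45, 76 and 75 in that order. Of all 13939 genes with a mean of at least 50, DESeq2 called 4062 higher and 1615 lower in EEC. It called 3840 and 1398 in Ent, 2861 and 971 in tuft cells, 1352 and 502 in SecPDG and 322 and 96 in AbsPro. Leaving out 1 library gave counts of 4 to 18 for EEC, 2 to 17 for Ent, 1 to 7 for tuft cells, 1 to 5 for SecPDG and 1 to 1 for AbsPro. Without EEC library 2 the EEC count was 18, without EEC library 1 the Ent count was 17 and the tuft cell count 7, and the SecPDG count was 5 without EEC library 1 and 4 without EEC library 2. Without stem cell library 1 the counts were 2 in Ent and 1 in SecPDG and tuft cells. It was 1 in SecPDG without SecPDG library 4, 1 in tuft cells without tuft cell library 2 or 3, 3 in Ent without Ent library 2 or 5 and 8 or 9 in EEC without stem cell library 2, SecPDG library 2, AbsPro library 1 or 3, tuft cell library 4 or Ent library 1. The causes were not tested. No share of all genes stands beside the counts at an adjusted p under 0.05, without the filter, with a block or without 1 library. Those counts are therefore no result about the members. With the replicate number as a block, 4 member genes were called in tuft cells, and the counts of the other comparisons stayed within 1.5 times. Over the 44 same-numbered pairs of libraries the correlation of deviations ranged from -0.393 to 0.488. Its median was 0.00138, against 0.0198 for different numbers. These pairs were pooled over all cell types, so pairing of single libraries is not excluded. For the called member genes, 397 alternative values kept their call and 35 lost it with the same direction. The Ent calls of Plk1, Picalm and Pfkp and the tuft cell call of Cd44 lay nearest the threshold: Plk1 lost its call without stem cell library 1, SecPDG library 3 or 4, tuft cell library 2 or 3 or Ent library 2, 3 or 5 (-1.15 to -0.92), Picalm without stem cell library 1, SecPDG library 4, tuft cell library 2 or 3 or Ent library 2, 3 or 5 (-1.31 to -1.08), Pfkp without any stem cell library or Ent library 2, 4 or 5 (from 0.93) and with the block (1.05), Zfp553 without stem cell library 1 (-1.38), Cd44 in tuft cells without stem cell library 1 or tuft cell library 2 or 3 (-1.23 to -1.13) and Plk1 in SecPDG without stem cell library 1 (1.53) or SecPDG library 4 (1.55). The alternative of a stricter probability of change was not run, since that column holds the authors' own test. Depth limited the skipped exons in EEC most.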
